A study of Mus musculus with 32 samples.

Results

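Collagen chain genes were measured on 32 arrays, from dorsal skin and ears of the NC/Nga strain, inbred mice that develop dermatitis readily. The members were all rows of the table whose gene symbol has the form Col, digits, a, digits, which gave 42 genes with 1 row each, out of 19505 genes with a symbol and 22206 rows tested. They fell into 8 fibrillar chains, 9 chains of the basement membrane and its zone, 7 chains of cartilage and 18 other chains. Col7a1, Col12a1 and Col21a1, which belong to the same classes, were not analysed here. The 4 groups of 8 mice were sham back skin, HDM back skin, sham ear and HDM ear. Every animal was NC/Nga, kept under SPF conditions, and RNA came from 8 mm tissue punches. The housing text names HDM treatment for all samples, so the groups rest on the agent given for each (Sham or HDM). The labels spell out neither agent, give no age or dose, and do not say whether mice with the same number at both sites are the same animal. Nothing but the mouse numbers says that samples are separate animals. The p-values therefore set a difference against the spread between these samples, pooled over the 4 groups. A punch holds every cell type of the tissue, so fewer cells of a type and less RNA per cell cannot be told apart in any value given here.

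Collagens are triple helices of chains, each chain with its own gene. Type I collagen, built from the products of Col1a1 and Col1a2, forms the thick fibrils of the dermis together with type III (Col3a1) and type V (Col5a1, Col5a2). Basement membranes rest on networks of type IV chains, above all Col4a1 with Col4a2, and type XVII collagen (Col17a1) spans the membrane of basal keratinocytes at the hemidesmosome, where it holds the epidermis to the dermis. Types II, IX, X and XI are the collagens of cartilage, the tissue that stiffens the external ear. Types VI and VIII form beaded filaments and short-chain networks, and FACIT chains such as Col14a1 and Col16a1 sit on the surface of fibrils or microfibrils.

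Values are log2 expression levels, in which a difference of 1 is a 2-fold change. The level of 1 gene cannot be set against that of another on these arrays, so values of the same gene are compared between groups. Where the log2 ratio of a gene pair is used, only its shift against the sham mean is read. The background of an array was the median of its negative control rows, between 4.43 and 5.38. By that measure 17 of the 42 chains were above background on all 32 arrays, 20 on some of them and 5 on none (Col2a1, Col6a4, Col19a1, Col25a1 and Col26a1). The mean background was 5.20 in sham ear, 4.82 in HDM ear, 4.72 in sham back skin and 4.84 in HDM back skin. Each array correlated with the mean of the rest of its group at 0.975 to 0.994. The labelled tissues carried their defining markers. The mean of 7 basal keratinocyte genes lay between 14.5 and 16.1 on every array. The mean of 12 chondrocyte genes was 9.10 ± 0.16 in sham ear and 4.42 ± 0.16 in sham back skin (SD, n = 8), where 9 of those 12 were below background on all 8 arrays. The mean of 8 hair follicle genes was 14.3 ± 2.96 in sham back skin and 6.01 ± 1.05 in sham ear. On that hair follicle mean sham mice 1 and 2 had the lowest back skin arrays, at 8.05 and 12.4, with 13.7 to 16.6 on the rest.

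The upstream sequences of 4 chains are shown because these chains recur in the results below, although no result uses the sequences. Col1a2 and Col3a1 encode partners in the same dermal fibrils, and in HDM ear Col1a2 was called lower than in sham ear while Col3a1 was not called. Col17a1 separated the ear groups without overlap, and Col8a1 had the largest difference between the sites. Each is the 250 bases before the annotated gene start, written 5′ to 3′ along the gene's own strand, from RefSeq for the mouse assembly GRCm38.p6. Capitals mark CCAAT and TATAAA, searched on both strands (the reverse complements read ATTGG and TTTATA). The windows are chr6:4505368-4505617 on the plus strand for Col1a2, chr1:45311288-45311537 on the plus strand for Col3a1, chr19:47692043-47692292 on the minus strand for Col17a1 and chr16:57754738-57754987 on the minus strand for Col8a1.
Col1a2: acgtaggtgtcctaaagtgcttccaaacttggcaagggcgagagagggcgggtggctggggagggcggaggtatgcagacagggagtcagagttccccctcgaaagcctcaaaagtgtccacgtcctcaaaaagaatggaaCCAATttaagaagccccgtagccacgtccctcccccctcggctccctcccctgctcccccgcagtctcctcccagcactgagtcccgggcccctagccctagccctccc
Col3a1: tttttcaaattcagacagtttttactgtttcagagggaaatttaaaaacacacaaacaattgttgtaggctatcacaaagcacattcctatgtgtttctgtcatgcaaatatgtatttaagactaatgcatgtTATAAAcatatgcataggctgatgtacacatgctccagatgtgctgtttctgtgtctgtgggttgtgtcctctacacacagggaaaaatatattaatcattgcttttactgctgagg
Col17a1: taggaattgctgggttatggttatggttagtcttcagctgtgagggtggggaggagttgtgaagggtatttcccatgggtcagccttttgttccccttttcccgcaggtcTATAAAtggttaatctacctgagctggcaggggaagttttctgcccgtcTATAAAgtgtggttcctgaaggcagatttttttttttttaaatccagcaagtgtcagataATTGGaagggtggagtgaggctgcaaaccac
Col8a1: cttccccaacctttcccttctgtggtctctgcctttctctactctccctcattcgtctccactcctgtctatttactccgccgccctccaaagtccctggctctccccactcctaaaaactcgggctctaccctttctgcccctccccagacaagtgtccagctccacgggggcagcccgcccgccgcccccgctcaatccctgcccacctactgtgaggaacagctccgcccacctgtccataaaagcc

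The windows of the fibril partners differ in composition: 62.0% of the Col1a2 bases are G or C, with 11 CG pairs, against 35.2% and 0 CG pairs for Col3a1. The Col17a1 window is at 46.0% and that of Col8a1 at 60.8%, and the median of all 32851 windows in the table is 52.4%. CCAAT occurs in 11 of the 34 chains with a window and in 33.9% of all windows of this length. TATAAA occurs in 5 of the 34 (Col3a1, Col10a1, Col11a2, Col13a1 and Col17a1) and in 12.4% of all windows. GGGCGG or its complement CCGCCC occurs in 20 of the 34 and in 32.7% of all windows. These matches describe letters only. Several chain genes are neighbours in the same assembly: Col4a1 and Col4a2 lie head to head on chromosome 8 and overlap by 85 bases, Col4a5 and Col4a6 lie head to head on chromosome X with 1274 bases between them, and Col6a1 and Col6a2 share chromosome 10.

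**Figure D1:**
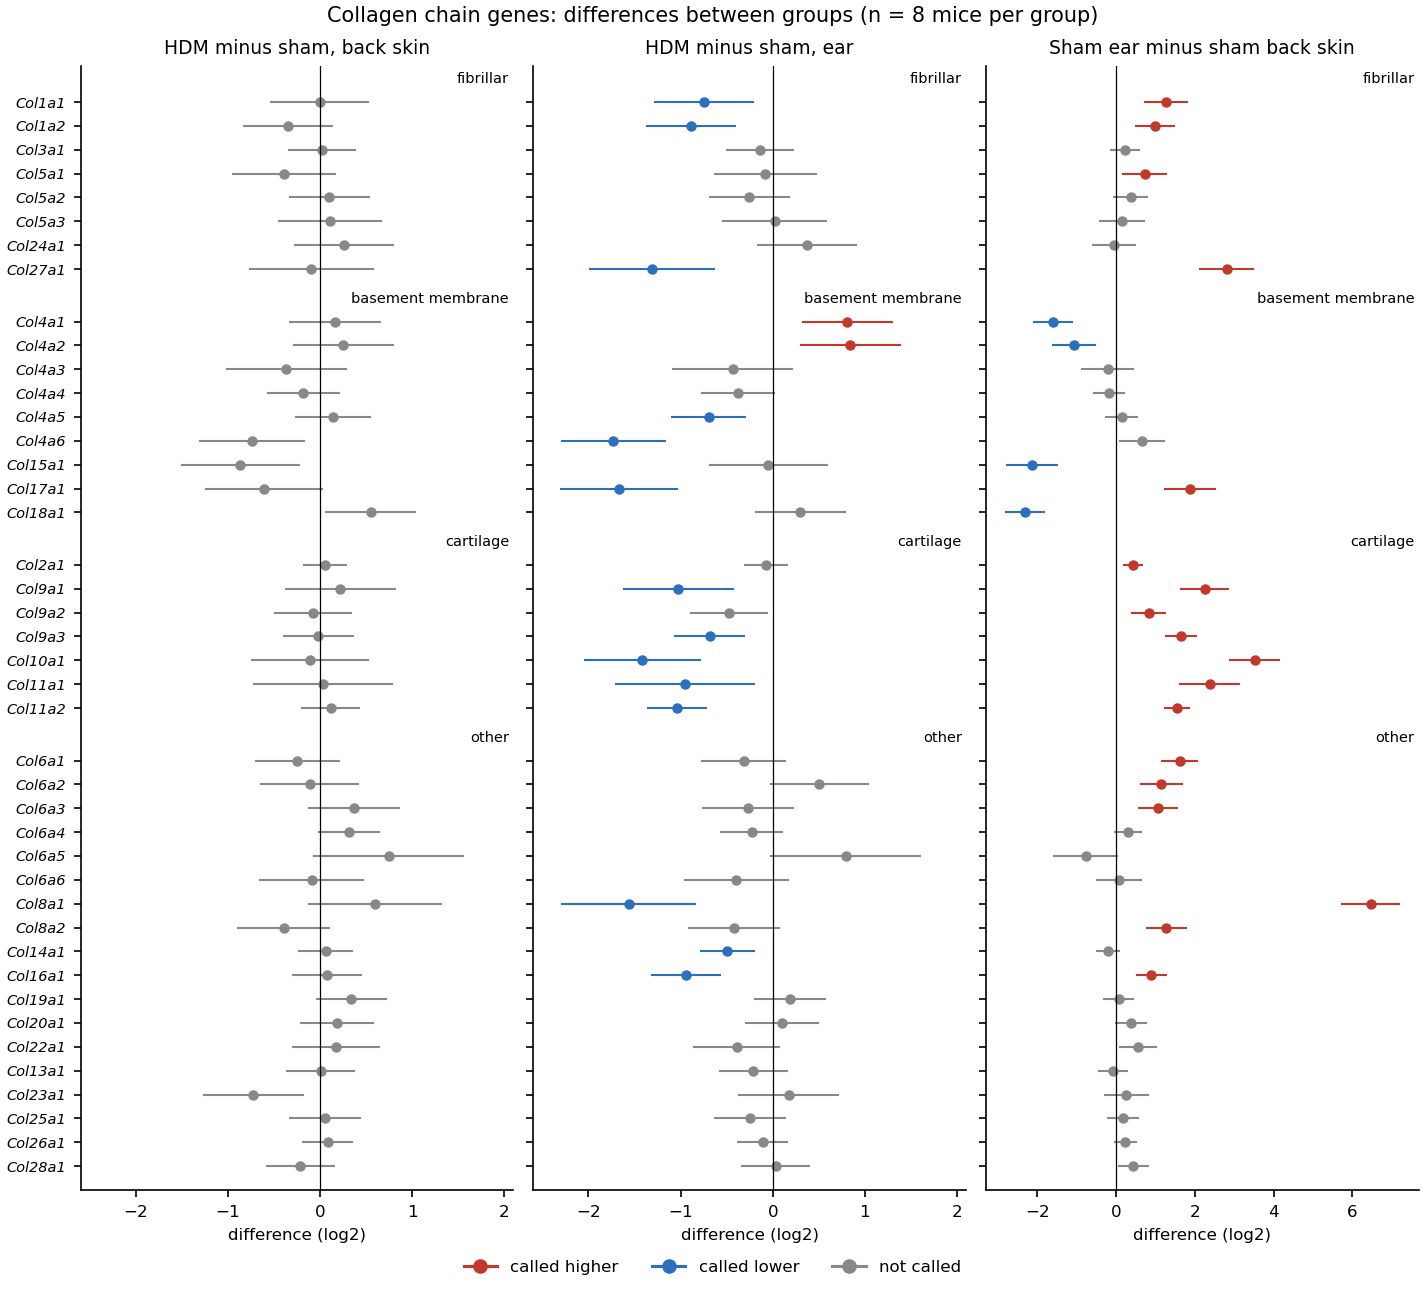
Difference between groups (log2, x axis) for each of the 42 chains (y axis), with 95% confidence intervals as bars, in 3 panels: the HDM effect in back skin, the HDM effect in ear, and sham ear against sham back skin, with 8 mice per group. Red and blue mark chains called higher and lower at an adjusted p under 0.05: none in back skin, 2 higher and 14 lower in ear, and 18 higher and 4 lower between the sham sites. The third panel has a wider x axis.

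The comparison of sham ear with sham back skin asks how the collagen chains of the 2 sites differ without HDM. In sham ear 18 of 42 chains were higher and 4 were lower, against 15.6% of all rows called higher and 14.1% called lower. The median difference of the chains was 0.40, against 0.04 over all rows. All 7 cartilage chains were among the higher ones. The chains of vessel and epithelial basement membranes Col4a1, Col4a2, Col15a1 and Col18a1 were the lower ones. Making the array medians equal moved the median of all rows in this comparison from 0.04 to 0.16 and the share of higher calls among all rows called from 52.6% to 67.3%, and gave 22 higher and 4 lower chains.

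Col8a1, a chain of the type VIII network found in vessel walls and under some epithelia, had the largest difference of the 42 chains. Its values in sham back skin were 2.71 to 3.75 with a median of 3.48 (median 3.97 in HDM back skin), under background on all 8 arrays of either group, and 9.27 to 10.77 with a median of 9.68 in sham ear. Col8a1 was therefore at least 33.9-fold higher in sham ear (limma adjusted p = 1.13e-15). Its partner Col8a2 was higher by 1.28 ± 0.24 (SE). Col10a1, the collagen of hypertrophic cartilage, was under background on all back skin arrays, ran from 5.84 to 8.15 with a median of 7.04 in sham ear, and was at least 4.87-fold higher there. Col9a1, a type IX chain on cartilage fibrils, was at least 2.51-fold higher. The bounds for Col8a1, Col10a1 and Col9a1 set the sham ear mean against the mean background of sham back skin, 4.72. The mean background of sham ear was 5.20, so these bounds are not free of the difference in background and would be smaller against it. Col9a2 passed the test (0.82 ± 0.20) but was above background on only 2 of 8 sham ear arrays and on no sham back skin array, so that no fold is given. Col11a1 and Col11a2, the chains that nucleate cartilage fibrils, were higher by 2.38 ± 0.37 and 1.55 ± 0.15, and Col9a3 by 1.66 ± 0.18. Col2a1, the main fibril chain of hyaline cartilage, passed the test with a difference of 0.42 ± 0.11 but stayed under background on all 32 arrays, so that no fold is given. Its values were 2.94 to 3.41 (median 3.21) in sham back skin, 3.14 to 3.45 (median 3.20) in HDM back skin, 3.23 to 3.84 (median 3.72) in sham ear and 3.14 to 4.00 (median 3.57) in HDM ear. Scarce RNA and poor detection cannot be told apart for this row. In the same comparison 10 of 12 chondrocyte genes were higher and 1 lower, and the part of cartilage in the chain values was not tested.

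Among fibrillar chains, Col1a1, Col1a2, Col5a1 and Col27a1 were higher in sham ear. Col27a1, a fibrillar chain of cartilage and other developing tissues, had a median of 4.42 in sham back skin, where 1 of 8 arrays was above background, and of 7.35 in sham ear, with a difference of 2.81 ± 0.33, or 2.55 with values under background raised to it. Col1a1 differed by 1.27 ± 0.26 and Col1a2 by 0.99 ± 0.24, with overlapping groups. Col5a1 was called by a narrow margin (0.72 ± 0.27, adjusted p = 0.0417), and its call was lost without 8 of the 32 arrays left out singly, namely mice 2, 3, 4 and 8 of sham back skin and mice 2, 3, 7 and 8 of sham ear. The other 3 fibrillar calls were kept in every such fit. Type VI, the filament that ties cells to the fibrils, was higher in all of its common chains: Col6a1 by 1.61 ± 0.22, Col6a2 by 1.15 ± 0.26 and Col6a3 by 1.06 ± 0.24. Col16a1, a FACIT chain, was higher by 0.89 ± 0.18. Col17a1 was higher by 1.88 ± 0.31, from a median of 14.4 to 16.2 with no overlap, while 4 of 7 basal keratinocyte genes were also higher.

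The lower chains in sham ear separated the sites fully. Col18a1, whose C-terminal fragment is endostatin, ran from 11.08 to 12.85 in sham back skin and from 9.54 to 10.30 in sham ear, a difference of -2.32 ± 0.24. Col15a1, its close relative in vessel and muscle basement membranes, differed by -2.14 ± 0.31. Col4a1 differed by -1.60 ± 0.24 and Col4a2 by -1.07 ± 0.26. The groups did not overlap for any of these 4 chains, and the share of all rows without overlap is not given here. Of 7 endothelial genes 3 were lower and 0 higher in sham ear, and of 8 hair follicle genes all 8 were lower. The part of these cell types in the basement membrane values was not tested. Col4a6 (0.66 ± 0.28) and Col28a1 (0.44 ± 0.18) had adjusted p-values of 0.0706 and 0.0614.

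The next question was whether collagen chains differed between HDM and sham mice in the dorsal skin. No chain was called in either direction with limma, against 6.18% of all rows called higher and 8.56% called lower. At an unadjusted limma p under 0.05, for which no share over all rows is given here, there were 4 chains, 1 higher and 3 lower. The other settings of the fit gave 0 or 1 higher and 0 to 3 lower chains. The median difference was 0.04, against 0.01 over all rows. The differences of the 42 chains ran from -0.87 to 0.75. Equal array medians moved the median of all rows from 0.01 to 0.13 and the share of higher calls among all rows called from 41.9% to 63.6%, and again called 0 chains.

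The main chains of the dermal fibril were not called in back skin. Col1a1 ran from 13.90 to 16.52 with a median of 14.97 in sham and from 14.51 to 15.57 with a median of 15.01 in HDM back skin, a difference of -0.0012 with a 95% interval from -0.53 to 0.53. Col3a1 ran from 16.16 to 17.57 (median 16.84) in sham and from 16.62 to 17.13 (median 16.86) in HDM back skin, a difference of 0.02 ± 0.18. Col1a2 ran from 13.98 to 16.44 (median 14.92) and from 14.24 to 15.10 (median 14.66), a difference of -0.34 ± 0.24. The sham arrays spread more widely than the HDM arrays here, with SDs of 0.89 against 0.33 for Col1a1. Mice 5 and 7 were the highest sham arrays for Col1a1, Col1a2 and Col3a1, and mice 4 and 6 the lowest. On the skeletal muscle list mice 5 and 7 also had the highest sham back skin means, 16.8 and 17.0, and the part of muscle in that spread was not tested.

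The chains nearest to a call were Col15a1, Col23a1 and Col4a6. Col15a1 had a median of 8.31 in sham and 7.31 in HDM back skin, a difference of -0.87 ± 0.31 (adjusted p = 0.0579), and leaving out single arrays gave adjusted p-values from 0.0220 to 0.142. Col23a1, a transmembrane chain, had medians of 7.15 and 6.51, a difference of -0.73 ± 0.26 (adjusted p = 0.0611). Sham mice 1 and 2 held its highest values, 8.46 and 8.76. Col4a6, which with Col4a5 makes a type IV network of the skin basement membrane, was above background on 7 of 8 sham arrays and on none in HDM back skin, with a difference of -0.74 ± 0.28 (adjusted p = 0.0679), or -0.22 once floored at background. Col18a1 had a difference of 0.55 ± 0.24 (adjusted p = 0.121), with sham mice 1 and 2 at 11.08 and 11.25 and the other sham arrays between 12.08 and 12.85. Col6a5, a type VI chain of skin, showed the opposite order, with sham mice 1 and 2 at 7.03 and 7.67 and the others between 4.42 and 5.49. Its difference of 0.75 ± 0.40 had an adjusted p of 0.226, and without sham mouse 2 an adjusted p of 0.0448.

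Col17a1 ran from 13.73 to 14.67 (median 14.36) in sham and from 12.69 to 14.29 (median 13.64) in HDM back skin, a difference of -0.61 ± 0.31 (adjusted p = 0.202). Of the 8 HDM arrays 5 lay under the lowest sham array, and mouse 5 was the lowest. Col16a1 ran from 6.45 to 7.99 (median 7.22) in sham and from 6.78 to 7.80 (median 7.37) in HDM back skin. Col4a1 ran from 9.10 to 10.40 (median 9.66) and from 9.22 to 10.22 (median 9.95), and Col4a2 from 8.78 to 9.77 (median 9.47) and from 8.55 to 9.97 (median 9.75). The groups overlapped for all of these chains, and none was called. Col27a1 was above background on 1 of 8 sham and 2 of 8 HDM back skin arrays, and Col11a2 on 4 and 3, while Col8a1, Col9a1 and Col10a1 were under it on all 16.

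The lists of genes that make, assemble and degrade collagen are to be read against the 6.18% of all rows called higher and 8.56% called lower in back skin. Of 7 collagen-degrading enzymes 4 were higher and 0 lower: the collagenase Mmp13 by 5.23 ± 0.58, the gelatinase Mmp9 by 4.03 ± 0.76, the neutrophil collagenase Mmp8 by 3.52 ± 0.81 and the lysosomal protease Ctsk by 1.33 ± 0.29. Of 15 fibril-associated proteoglycans and glycoproteins 6 were lower and 0 higher, led by fibromodulin (Fmod, -1.96 ± 0.34), which regulates fibril growth, and followed by Prelp (-1.22 ± 0.26), Ogn (-1.13 ± 0.26) and Thbs2 (-0.97 ± 0.26). Of 18 folding and modification genes 3 were higher and 1 lower. P4hb, a subunit of prolyl 4-hydroxylase, rose by 1.11 ± 0.19, P4ha3 by 0.91 ± 0.30 and the cyclophilin Ppib by 0.71 ± 0.20, and the transcription factor Creb3l1 fell by 1.01 ± 0.28. Of 12 cleavage and cross-linking genes 2 were higher (Tll1, 1.08 ± 0.31, and Bmp1, 0.58 ± 0.19) and 1 lower (Pcolce2, -0.97 ± 0.32). Of 9 collagen receptors Adgrg1 was higher (0.68 ± 0.22) and the discoidin receptor Ddr2 lower (-1.60 ± 0.27). Of 17 basement membrane partners 2 were higher and 3 lower, with the laminin genes Lamc3 (-2.09 ± 0.36) and Lama2 (-0.95 ± 0.31) and nidogen Nid1 (-0.73 ± 0.20) lower and Lama1 higher by 0.65 ± 0.22. Of 12 TGF-beta and activated-fibroblast genes 2 were higher (Tnc, 1.60 ± 0.48, and Postn, 1.03 ± 0.21) and 2 lower (Tgfb2, -1.49 ± 0.30, and Ccn2, -0.90 ± 0.25).

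**Figure D2:**
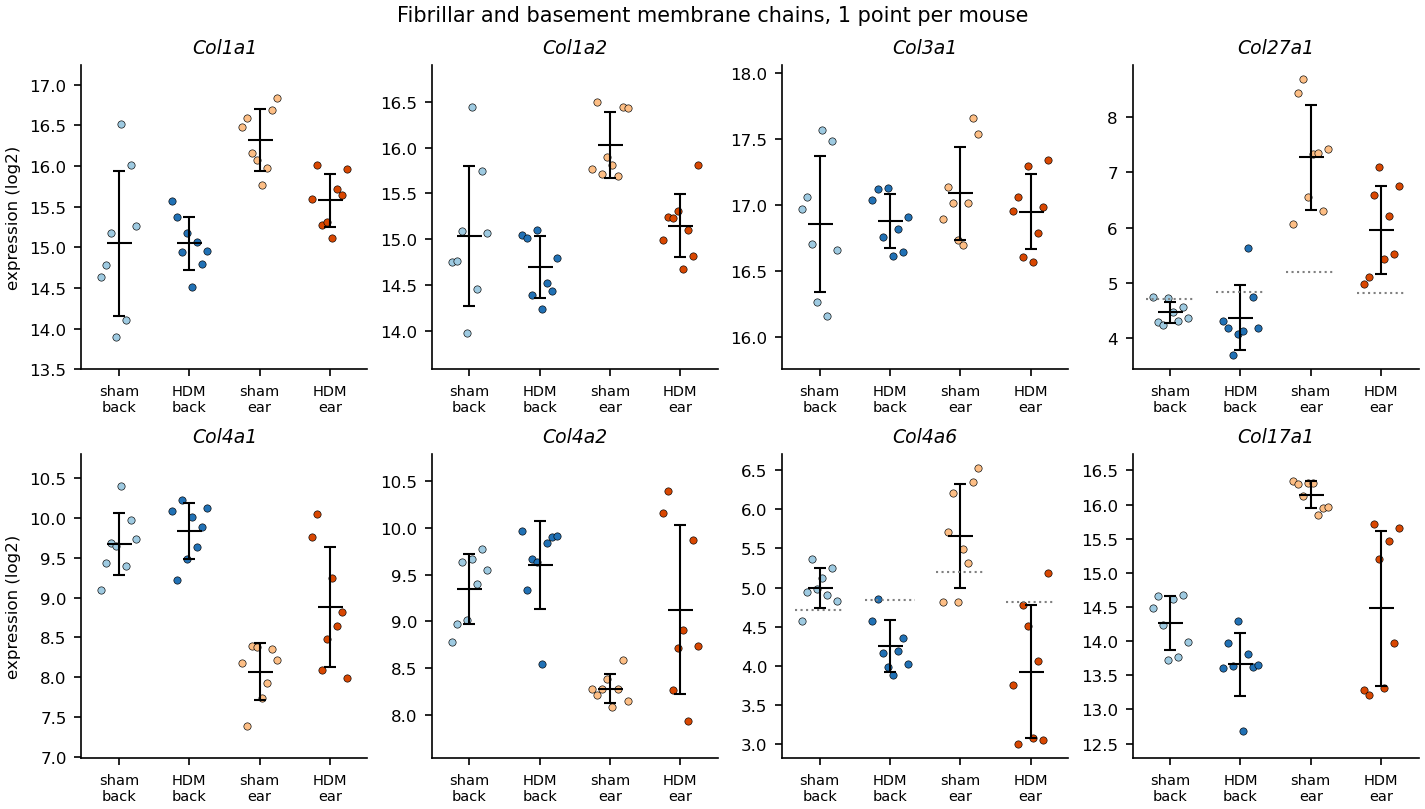
Expression (log2, y axis) of 8 fibrillar and basement membrane chains in the 4 groups, 1 point per mouse, with the group mean and SD in black and the mean background of the group as a dotted line where it falls in the plotted range. The y axes differ and do not start at 0. In ear, Col17a1 has all 8 HDM arrays under all 8 sham arrays, Col1a1 and Col1a2 are lower, Col3a1 overlaps throughout, and Col4a1 and Col4a2 reach 10.05 and 10.39 in HDM ear.

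In ear the same comparison of HDM with sham gave calls: 2 chains were higher and 14 lower with HDM, against 16.4% of all rows called higher and 15.5% called lower. The median difference of the chains was -0.29, against -0.02 over all rows. The higher chains were Col4a1 and Col4a2. The lower ones were 3 of 8 fibrillar chains, 3 of 9 basement membrane chains, 5 of 7 cartilage chains and 3 of 18 other chains. Of the 16 calls, Col1a1 was lost without sham ear mouse 8 or HDM ear mouse 5 (adjusted p up to 0.0561), Col11a1 was lost in 21 of the 32 fits without 1 array, and the other 14 were kept in all of them.

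Type I collagen was lower in HDM ear while type III was not called. Col1a1 ran from 15.77 to 16.84 with a median of 16.32 in sham ear and from 15.11 to 16.01 with a median of 15.62 in HDM ear. HDM mice 2 and 8 reached into the sham range, and the difference was -0.75 ± 0.26 (adjusted p = 0.0253). Col1a2 ran from 15.69 to 16.50 (median 15.86) in sham and from 14.68 to 15.81 (median 15.16) in HDM ear. Only HDM mouse 8 reached into the sham range, and the difference was -0.88 ± 0.24 (adjusted p = 0.0037). Col3a1 ran from 16.70 to 17.66 (median 17.02) in sham and from 16.57 to 17.34 (median 16.98) in HDM ear, and its difference of -0.14 had a 95% interval from -0.50 to 0.22. The ratio of the 2 chains within each array removes what an array shares. Taken against the sham ear mean, the log2 ratio of Col1a1 to Col3a1 lay between -0.27 and 0.35 in sham ear and between -1.22 and -0.28 in HDM ear, with no overlap. That of Col1a2 to Col3a1 lay between -0.27 and 0.42 in sham ear and between -1.11 and -0.32 in HDM ear, again with no overlap. In back skin all 8 HDM arrays lay within the sham range for Col1a1 to Col3a1. For Col1a2 to Col3a1 the HDM back skin arrays averaged -0.36 ± 0.15 (SD) against the sham mean, and 3 of 8 lay under the lowest sham array. For Col1a2 to Col1a1 they averaged -0.34 ± 0.18 (SD), and 6 of 8 lay under it. These ratios were chosen after the values were seen and were not tested. Of the other fibrillar chains, Col27a1 ran from 6.07 to 8.69 (median 7.34) in sham and from 4.99 to 7.09 (median 5.87) in HDM ear, lower by -1.31 ± 0.33 (adjusted p = 0.0022). Col5a1 (-0.08 ± 0.27) and Col5a2 (-0.26 ± 0.21), the type V chains that set fibril diameter, were not called.

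In the basement membrane the chains split. Col4a1 ran from 7.39 to 8.39 (median 8.20) in sham ear and from 7.99 to 10.05 (median 8.73) in HDM ear, and rose by 0.81 ± 0.24 (adjusted p = 0.00813). Col4a2 ran from 8.08 to 8.59 (median 8.28) in sham and from 7.94 to 10.39 (median 8.83) in HDM ear, and rose by 0.84 ± 0.26 (adjusted p = 0.0129). Mice 1 and 2 were the highest arrays for both, at 9.76 and 10.05 for Col4a1 and at 10.16 and 10.39 for Col4a2, while mice 3 and 8 (Col4a1) and mice 3 and 6 (Col4a2) lay inside or under the sham range. Of 7 endothelial genes 1 was higher (Pecam1, 0.87 ± 0.18) and 1 lower (Tek, -0.74 ± 0.20), and of 6 mural cell genes 0 were higher and 2 lower. Their part in the type IV values was not tested. Col17a1 ran from 15.85 to 16.34 (median 16.21) in sham and from 13.21 to 15.71 (median 14.60) in HDM ear, and fell by 1.67 ± 0.31 (adjusted p = 8.35e-05) with no overlap. Its HDM values were 13.28, 13.21, 15.71, 15.21, 13.32, 15.47, 13.98 and 15.65 in mice 1 to 8. Mice 1, 2, 5 and 7 thus lay under 14 and the other mice above 15. Of the 7 basal keratinocyte genes 1 was higher (Krt14, 0.41 ± 0.12) and 3 lower (Krt15, -3.55 ± 0.53; Dst, -1.68 ± 0.27; Itgb4, -0.60 ± 0.20). Dst and Itgb4 encode hemidesmosome proteins as Col17a1 does, while Itga6, Krt5 and Trp63 of the same list were not called. The list mean was 16.0 ± 0.11 in sham and 15.2 ± 0.52 in HDM ear, and its part in the Col17a1 value was not tested. Col4a6 ran from 4.82 to 6.53 (median 5.60) in sham ear and from 3.00 to 5.18 (median 3.91) in HDM ear, above background on 6 and on 1 of 8 arrays. It fell by 1.73 ± 0.28 (adjusted p = 1.12e-05), or by 0.88 once floored at background. Col4a5, its partner chain, passed the test at -0.70 ± 0.20 but was under background on all 16 ear arrays, so no fold is given. Flooring at each array's own background, which was higher in sham ear, gave Col4a5 a difference of -0.38. The floored value of Col4a6 is therefore not free of that background difference. Col18a1 (0.30 ± 0.24) and Col15a1 (-0.05 ± 0.31) were not called.

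**Figure D3:**
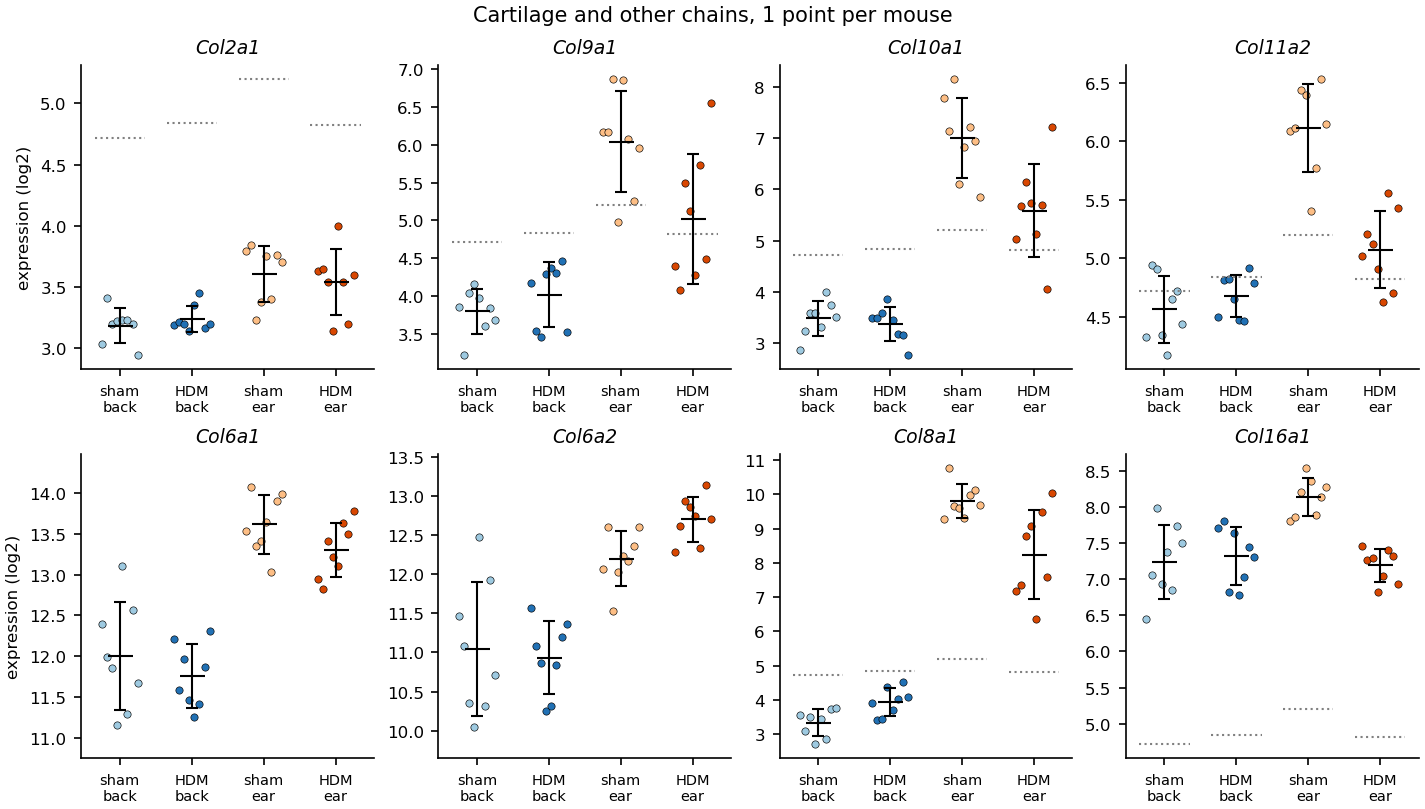
Expression (log2, y axis) of 4 cartilage chains and 4 other chains in the 4 groups, 1 point per mouse, with the group mean and SD in black and the mean background of the group as a dotted line where it falls in the plotted range. The y axes differ and do not start at 0. Col2a1 lies under background in all groups, Col8a1 and Col10a1 are under it in back skin and, in ear, above it on all arrays but 1 (Col10a1 in HDM mouse 7), and Col16a1 in HDM ear (6.82 to 7.46) lies under all sham ear arrays (7.80 to 8.54).

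Of the 7 cartilage chains 5 were lower in HDM ear and 0 higher, and the median difference of the 7 was -0.95. Col10a1 ran from 5.84 to 8.15 (median 7.04) in sham and from 4.06 to 7.22 (median 5.68) in HDM ear, and fell by 1.42 ± 0.31 (adjusted p = 0.000501). Mouse 7 was the lowest at 4.06, under its background, and mouse 8 the highest. Col11a2 ran from 5.40 to 6.53 (median 6.13) in sham and from 4.63 to 5.56 (median 5.07) in HDM ear, and fell by 1.04 ± 0.15 (adjusted p = 3.85e-06). Of its HDM ear arrays 6 of 8 were above background, and the fall was 0.99 once floored at background. Col9a1 ran from 4.98 to 6.87 (median 6.12) in sham and from 4.08 to 6.55 (median 4.80) in HDM ear, where 4 of 8 arrays were above background, and fell by 1.02 ± 0.29 (adjusted p = 0.00599), or by 0.83 once floored at background. The mean background was 5.20 in sham and 4.82 in HDM ear. The floored values of Col11a2 and Col9a1 are not free of that difference. Col9a3 fell by 0.68 ± 0.18 and Col11a1 by 0.95 ± 0.37 (adjusted p = 0.047). Col9a2 (-0.48 ± 0.20, adjusted p = 0.0737) and Col2a1 (-0.07 ± 0.11) were not called. Genes of chondrocytes other than collagens moved in the same arrays: 10 of 12 were lower and 0 higher, led by Chad (-2.74 ± 0.38), Cnmd (-1.88 ± 0.24), the aggrecan gene Acan (-1.79 ± 0.32) and Sox9 (-1.67 ± 0.32). Their mean was 8.95 to 9.40 in sham ear and 6.94 to 8.48 in HDM ear, with no overlap. All 6 skeletal muscle genes and all 6 adipocyte genes were lower too, and the part of the tissue make-up of the punch in the chain values was not tested.

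Among the other chains Col8a1, Col16a1 and Col14a1 were lower. Col8a1 ran from 9.27 to 10.77 (median 9.68) in sham and from 6.36 to 10.05 (median 8.19) in HDM ear, and fell by 1.57 ± 0.35 (adjusted p = 0.000771). Mice 1, 2, 5 and 7 had 7.19, 7.34, 6.36 and 7.59, and the other HDM mice 8.79 to 10.05. Col16a1 ran from 7.80 to 8.54 (median 8.17) in sham and from 6.82 to 7.46 (median 7.28) in HDM ear, and fell by 0.94 ± 0.18 (adjusted p = 0.000134) with no overlap. Col14a1 fell by 0.49 ± 0.14. Type VI was not called in any chain: Col6a1 had -0.32 ± 0.22, Col6a3 -0.27 ± 0.24 and Col6a2 0.51 ± 0.26 (adjusted p = 0.144). Within arrays, the log2 ratio of Col6a2 to Col6a1 averaged 0.82 ± 0.39 (SD) in HDM ear against the sham ear mean, and 6 of 8 HDM arrays lay above the highest sham array. This ratio too was chosen after the values were seen and was not tested. The remaining chains that were not called had differences between -0.48 and 0.79, the highest being Col6a5, above background on 7 of 8 HDM and 1 of 8 sham arrays.

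**Figure D4:**
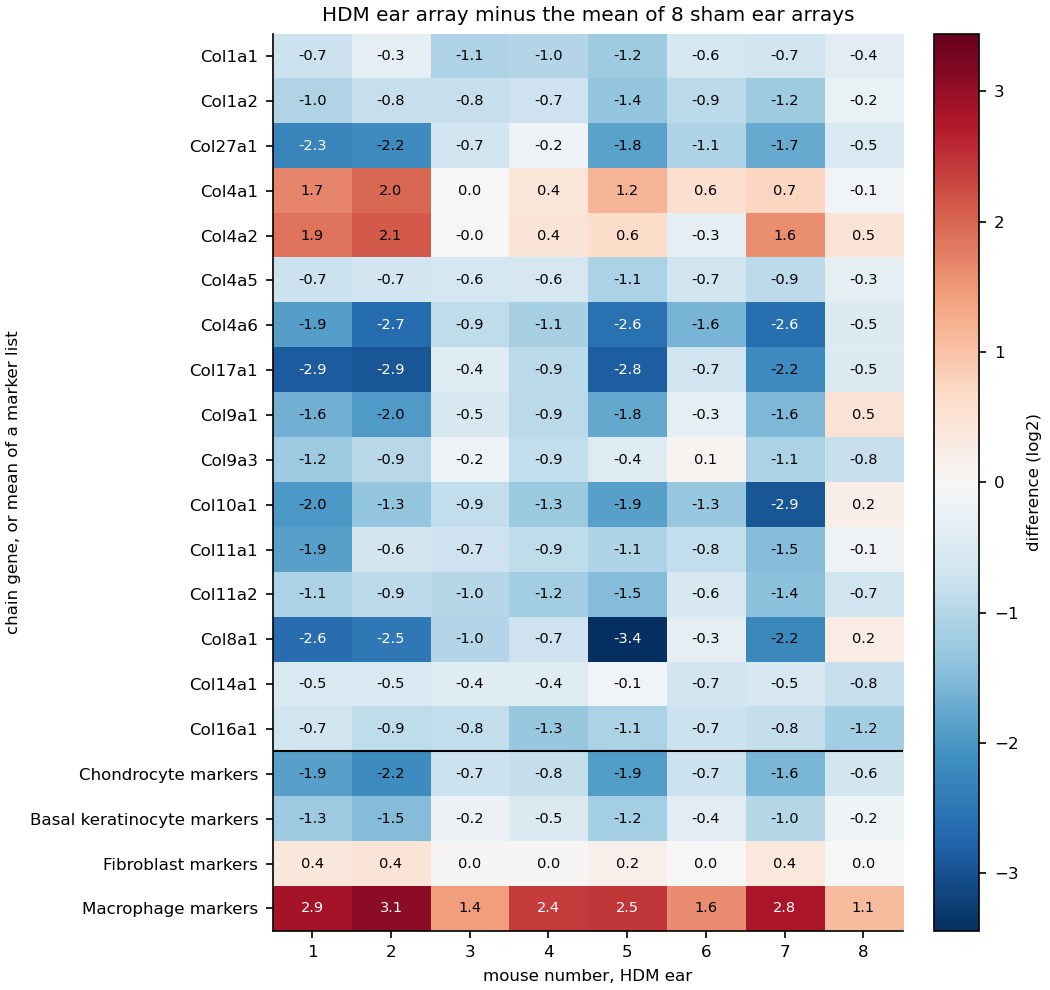
Each HDM ear array minus the mean of the 8 sham ear arrays (log2, colour and printed value), by mouse number (x axis), for the 16 chains called in ear and, under the line, for the means of 4 marker lists (y axis). Mice 1, 2, 5 and 7 have the lowest Col17a1 and Col8a1 values, Col1a2 is below the sham mean in all 8 mice, and Col16a1 is 0.7 to 1.3 below it in all of them.

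The HDM ears differed from mouse to mouse, and not alike for all chains. Of the 14 lower chains, the number under the lowest sham ear array was 13 in mice 1 and 7, 12 in mouse 5, 11 in mouse 2, 10 in mouse 4, 8 in mice 3 and 6 and 4 in mouse 8. These chains were called lower on the same arrays, so high counts are built in, and no share over all rows is given. The median deviation from the sham mean over these chains was -1.44 in mouse 1 and -0.42 in mouse 8. Mice 1, 2, 5 and 7 were the lowest arrays for Col17a1, Col8a1, Col4a6, Col27a1, Col9a1 and Col10a1. The same mice were the highest HDM ear arrays for Col4a1 and Col4a2, the chains called higher. On Col16a1 mouse 1 was the highest HDM array, at 7.46, and mouse 4 the lowest, at 6.82. On Col1a1 mouse 2 was the highest at 16.01 and mouse 5 the lowest at 15.11. The chondrocyte mean was 7.22, 6.94, 7.18 and 7.53 in mice 1, 2, 5 and 7 and 8.28 to 8.48 in the others. The basal keratinocyte mean was 14.5 to 15.0 in mice 1, 2, 5 and 7 and 15.5 to 15.8 in the others. The fibroblast mean was 9.33 to 9.59 in mice 1, 2, 5 and 7 and 9.15 to 9.19 in the others. Splitting the mice by these values would be a split by outcome, so no test was made.

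In ear the same lists stand beside 16.4% of all rows called higher and 15.5% called lower. Of 7 enzymes that cut collagen 3 were higher and 1 lower in HDM ear: Mmp8 by 5.12 ± 0.81, Mmp9 by 5.06 ± 0.76 and Mmp13 by 3.48 ± 0.58, while the fibroblast protease Fap fell by 1.22 ± 0.24. Of 15 fibril-associated genes 2 were higher and 9 lower. The small leucine-rich proteoglycans Ogn (-2.23 ± 0.26), Fmod (-1.995 ± 0.34) and Aspn (-1.59 ± 0.35) fell, and versican (Vcan) rose by 1.71 ± 0.30. Of 18 folding and modification genes 5 were higher and 4 lower, with P4hb up by 1.35 ± 0.19, P4ha3 by 1.12 ± 0.30 and Ppib by 1.04 ± 0.20, and the collagen galactosyltransferase Colgalt2 down (-1.69 ± 0.23). Of 12 cleavage and cross-linking genes 3 were higher and 4 lower: the lysyl oxidase family member Loxl4 (-2.55 ± 0.43), the procollagen peptidase Adamts14 (-2.29 ± 0.40) and Pcolce2 (-1.65 ± 0.32) fell, and Loxl1 rose by 1.59 ± 0.26. Of 9 collagen receptors Lair1, an inhibitory receptor of leukocytes, rose by 1.61 ± 0.25 and 4 fell, among them the uptake receptor Mrc2 (-1.65 ± 0.24), the integrin Itga11 (-1.24 ± 0.33) and Ddr1 (-1.14 ± 0.24). Of 17 basement membrane partners 1 was higher and 7 lower, led by Lamc3 (-2.02 ± 0.36), Frem2 (-1.87 ± 0.36), Lama2 (-1.68 ± 0.31) and agrin (Agrn, -1.25 ± 0.25). Of 12 TGF-beta and activated-fibroblast genes 3 were higher and 3 lower: Tnc rose by 4.01 ± 0.48 and Tgfb1 by 1.82 ± 0.24, and Tgfb3 (-1.88 ± 0.33) and Tgfb2 (-1.31 ± 0.30) fell.

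Fibroblasts make most fibrillar collagen of the dermis. Of 9 fibroblast genes 1 was higher (Thy1, 1.22 ± 0.22) and 1 lower (Dpt, -0.79 ± 0.17), and their mean was 9.14 ± 0.17 in sham and 9.33 ± 0.19 in HDM ear. In back skin 3 of 9 were lower, Pi16 (-1.89 ± 0.22), Dpp4 (-1.12 ± 0.28) and Dpt (-0.96 ± 0.17). All 4 macrophage genes were higher in ear, with a mean of 10.9 ± 0.14 in sham and 13.2 ± 0.74 in HDM ear, and 0 of 4 in back skin. The part of these shifts in the chain values was not tested. Of the remaining marker lists in back skin, 4 of 6 adipocyte and 3 of 4 Schwann cell genes were lower with 0 higher, 1 of 7 basal keratinocyte genes was higher and 3 lower, 1 of 7 endothelial and 1 of 6 mural cell genes were higher with 1 lower each, and 0 of 12 chondrocyte, 0 of 6 skeletal muscle and 0 of 8 hair follicle genes were called. In ear 2 of 4 Schwann cell genes and 1 of 8 hair follicle genes were lower with 0 higher.

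Whether the HDM effect on a chain differed between the sites was tested as the effect in ear minus the effect in back skin. No chain was higher and 5 were lower, against 6.77% of all rows called higher and 3.37% called lower. At an unadjusted limma p under 0.05, for which no share over all rows is given here, there were 1 higher and 12 lower chains. This comparison uses the same sham ear arrays as the 2 others that involve ear, so its values do not stand apart from them. Equal array medians moved the share of higher calls among all rows called from 66.8% to 45.8% and gave 0 higher and 7 lower chains. Col8a1 had the largest value, -2.16 ± 0.50 (adjusted p = 0.00503), with -1.57 in ear and 0.60 in back skin, where it lay under background in both groups. Floored at background, the Col8a1 value was -1.69, and its back skin part (0.12) was only the difference between the backgrounds of the groups. Col11a2 had -1.15 ± 0.22 (adjusted p = 0.00081) and Col16a1 -1.02 ± 0.26 (adjusted p = 0.00978), with Col16a1 at 0.08 ± 0.18 in back skin and above background on all 32 arrays. Col11a2 lay near background in back skin, above it on 4 of 8 sham and 3 of 8 HDM arrays. A fall there could hardly have been seen. Col9a1 (-1.24 ± 0.41, adjusted p = 0.0474) and Col4a5 (-0.84 ± 0.28, adjusted p = 0.0486) were at the edge, and each was lost in 23 of the 32 fits without 1 array. Col9a1 was under background on all 16 back skin arrays and Col4a5 on 14 of them. Col10a1 missed the threshold at -1.31 ± 0.43 (adjusted p = 0.0504).

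For the chains of the dermal fibril and the hemidesmosome, the difference between the sites was not called. It was -0.75 ± 0.37 for Col1a1 (adjusted p = 0.207), -0.54 ± 0.33 for Col1a2 (adjusted p = 0.335), -0.16 ± 0.25 for Col3a1 and -1.06 ± 0.44 for Col17a1 (adjusted p = 0.125). The 95% interval for Col17a1 ran from -1.95 to -0.16 and that for Col1a1 from -1.49 to 0.0008. Col4a1 had 0.65 ± 0.34 and Col4a2 0.59 ± 0.37, with adjusted p-values of 0.237 and 0.347. Col27a1 (-1.21 ± 0.47) and Col4a6 (-0.99 ± 0.39) had adjusted p-values of 0.0937 and 0.106. These chains passed the test in ear alone, or in neither site for Col3a1, and are not shown to respond differently at the sites.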

How the data were processed

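Total RNA (100 ng per sample) was hybridised to Affymetrix Mouse Clariom D arrays, 1 per sample. The submitters' processing notes name Transcriptome Analysis Console and RMA, and the deposited values are log2 signals. For tool versions, genome build and annotation the entry is: not given in the sources used here. Whether values were rescaled after RMA is unknown. Of 28846 rows, 6640 control rows were left out of the tests. The other 22206 were fitted with limma 3.58.1 in R 4.3.3 (lmFit, eBayes, 4 group means over 32 arrays), with two-sided p-values adjusted by Benjamini-Hochberg over all of them and calls at an adjusted p under 0.05. The fit was tested on simulated data.

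A chain called between groups, under background on all 8 arrays of one and above it on most arrays of the other, got a lower bound of its fold. The bound set the mean of the higher group against the mean background of the group under it. It takes no account of a difference in background between the groups. No fold is given for chains at or under background in both groups. Chains called with a difference of at least 1 in an HDM comparison, and Col1a1, Col1a2, Col3a1, Col4a1, Col17a1 and Col2a1 whatever their values, were given in full; Col7a1, also in that rule, was not analysed here. Col4a2 was added as the partner of Col4a1. Other lists were given by counts and up to 4 genes. Members and lists were chosen with earlier results of these data known. The number of arrays limits the precision. Mouse numbers recur in all groups, but deviations of same-numbered arrays correlated at only -0.14 to 0.14, so samples were not paired. Alternatives covered scaling, background, filters, weights, blocks and single arrays.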

Additional observations from a re-analysis of the deposited data

Results flagged for a closer look

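Single arrays lay far from the other 7 of their group in 8 of the 148 groups examined (37 chains above background on at least 1 array, in 4 groups each), where chance gives about 1 in 20. The highest of their groups in ear were Col24a1 in HDM mouse 2 at 6.53, Col6a5 in HDM mouse 7 at 7.32, Col28a1 in HDM mouse 8 at 6.40 and Col6a5 in sham mouse 3 at 6.11. Sham ear mouse 2 was the highest for Col23a1 at 8.77, and sham ear mouse 1 the lowest for Col14a1 at 6.90. HDM back skin mouse 5 was the lowest for both Col17a1, at 12.69, and Col4a2, at 8.55.

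By the limma test of the difference, the HDM effect was called different between ear and back skin for 5 chains. The ear effect minus the back skin effect was -2.16 for Col8a1, -1.15 for Col11a2, -1.02 for Col16a1, -1.24 for Col9a1 and -0.84 for Col4a5. Of these, Col16a1 was above background on all 32 arrays, and Col4a5 on 2. Col8a1 and Col9a1 were under background on all back skin arrays. Col11a2 was above it on 4 of 8 sham and 3 of 8 HDM back skin arrays, and on 6 of 8 HDM ear arrays. The calls of Col9a1 and Col4a5 were each lost in 23 of the 32 fits without 1 array.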

How the results depend on the processing

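No called chain changed sign under any setting run, while chains that were not called, with differences near 0, did in part (in back skin, Col1a1 under 1 and Col9a3 under 4 of the 10 settings other than leaving out 1 array, and Col1a1 also without some single arrays). The balance of calls over all rows turned with equal array medians: the share called higher went from 41.9% to 63.6% in back skin and from 66.8% to 45.8% for the difference of effects. In back skin, chains called higher numbered 1 with only the arrays of the comparison and 1 with sham back skin mice 1 and 2 left out (0 in the main fit). Chains called lower there numbered 3 without rows dim on more than 24 arrays, 1 with array weights, 2 with only the arrays of the comparison and 2 with the mouse number as a fixed replicate block. Leaving out single arrays gave 0 to 1 higher and 0 to 2 lower chains in back skin, 2 higher and 12 to 15 lower in ear, 17 to 20 higher and 4 lower between the sham sites, and 3 to 7 lower for the difference of effects. That difference gave 3 lower chains with array weights, with control rows kept, with the fixed replicate block and without sham back skin mice 1 and 2. Raising values under background to it gave 26 lower chains in ear (15862 rows called), 1 higher and 23 lower for the difference of effects (12103 rows) and 31 higher between the sham sites (15246 rows). By construction dim rows there take each group's background, which was highest in sham ear, and the share of higher calls moved from 51.4% to 23.0% in ear. For the other changes the cause was not tested. Of the 16 ear calls 14 were kept under every setting that tested them (the filter on dim rows drops Col4a5), the exceptions being Col1a1 and Col11a1. With the fixed replicate block the ear gave 2 higher and 13 lower chains, and with a random replicate block 2 and 14 (consensus correlation 0.0148). The mean over rows of a symbol could not be run, since each chain has 1 row. Signal limits 20 chains that were under background on some arrays and 5 on all.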
